A study of Nicotiana tabacum with 18 samples.

Results

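Of 69500 annotated genes of tobacco (Nicotiana tabacum), 123 were expressed in leaves of only one of the parents of the hybrid VG9. They were chosen by their level in the parental libraries: a mean of at least 2 FPKM (fragments per kilobase of transcript, scaled to the mapped reads of a library) with every library at 1 FPKM or more in one parent, and every library at 0.1 FPKM or less in the other. By this rule 71 genes were expressed in Va116 and silent in GDH94, and 52 were expressed in GDH94 and silent in Va116. The series holds 18 leaf RNA-seq libraries, 3 from each of 6 genotypes, all taken 45 days after transplanting: VG9 is the F1 of Va116 and GDH94, KG8 that of K326 and GDH88, and the 4 parental lines were sequenced beside them. Va116 and K326 served as one parent and GDH94 and GDH88 as the other, in a field trial with no treatment. Each library came from field-grown plants, with leaves of several plants of a plot mixed, so that a replicate is a pool and not 1 plant.

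An F1 hybrid carries the alleles of both parents, so a gene that only one parent expresses is usually switched on in the hybrid as well, a form of complementation often discussed beside heterosis. If only the allele of the expressing parent were active and kept its parental output, the hybrid would sit near the mid-parent value, a ratio of 0.5 to the expressing parent. A ratio near 1 means that the hybrid reached the level of the expressing parent, and a ratio near 0 that the gene was silent in the hybrid as in the other parent. Tobacco is an allotetraploid, so that most genes have a closely related copy from the other ancestral genome, and short reads of near-identical copies can be shared between them.

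The libraries summed to between 887628 and 1062588 FPKM, and 41974 to 44138 genes were above 0 in a library. The leaf genes NtLhcb1 and NtLhcb2, which encode light-harvesting chlorophyll proteins, lay between 9.36 and 75.3 FPKM and between 25.6 and 89.9 FPKM over the 18 libraries, and NtrbcL, listed as the large subunit of Rubisco, between 1.07 and 13.7 FPKM. No read counts come with the FPKM values, so a gene listed at 0 was not detected at the depth of its library. The paper lists mapped reads for the VG9, Va116 and GDH94 libraries. Each VG9 library had fewer uniquely mapped reads than each GDH94 library, while VG9 and Va116 overlapped. NtLhcb1 had 71.3, 70.5 and 75.3 FPKM in VG9, against 17.3, 17.4 and 17.9 FPKM in Va116, so that a leaf gene outside the set moved between these genotypes too, and its part in the results below was not tested. In bulk leaf RNA, fewer cells of a type and less RNA per cell cannot be told apart.

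In the expressing parent the 71 Va116-expressed genes averaged between 2.01 and 53.7 FPKM, with a median of 5.27 FPKM, and the 52 GDH94-expressed genes between 2.02 and 26.6 FPKM, with a median of 4.26 FPKM. In the silent parent 45 of the 71 and 27 of the 52 were listed at 0 in every library. These genes were rare: of 29409 genes that passed the upper limits of the rule in Va116, 0.241% were silent in GDH94, and of 30890 that passed them in GDH94, 0.168% were silent in Va116. All of these values chose the genes and are given without a test.

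Just inside the limit on the mean lay Nitab4.5_0002587g0130 at 2.01 FPKM in Va116 and Nitab4.5_0025058g0010 at 2.02 FPKM in GDH94, and just outside it Nitab4.5_0001760g0080 at 1.97 FPKM in Va116 and Nitab4.5_0001447g0030 at 1.97 FPKM in GDH94. At the limit on the silent parent, Nitab4.5_0000697g0020 reached 0.1 FPKM in its highest GDH94 library and Nitab4.5_0010275g0030 0.1 FPKM in its highest Va116 library, while Nitab4.5_0002448g0020 and Nitab4.5_0003154g0050 stood outside at 0.11 FPKM in GDH94 and in Va116. The limit on single libraries kept Nitab4.5_0002587g0110, with a lowest Va116 library of 1.44 FPKM, and Nitab4.5_0015123g0010, with a lowest GDH94 library of 1.34 FPKM, and it left out Nitab4.5_0006462g0020 at 0.08 FPKM and Nitab4.5_0011271g0050 at 0.82 FPKM.

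In VG9 most Va116-expressed genes were on, and fewer of the GDH94-expressed genes were. A gene was counted as on in a genotype when every library reached 1 FPKM, as off when every library was at 0.1 FPKM or less, and as between otherwise. Of the 71 Va116-expressed genes 50 (70.4%) were on in VG9, 10 were between and 11 (15.5%) were off, and of the 52 GDH94-expressed genes 21 (40.4%) were on, 19 (36.5%) were between and 12 (23.1%) were off. Among all genes past the upper limits in Va116, 98.9% were on, 1.08% between and 0.0714% off in VG9, and among those past them in GDH94, 96.9% were on, 3.04% between and 0.0939% off. The genes that one parent did not express were thus below the background share of on genes on both sides, and above that of off genes. The background holds mostly genes expressed in both parents (28712 passed the upper limits in both), so it is not a like set. Of the 29 genes past the limits in GDH94 and off in VG9, 12 were silent in Va116, and of the 21 on the Va116 side, 11 were silent in GDH94. A gene of low parental level can miss the on limit of 1 FPKM even at its mid-parent value. With a parental mean of at least 5 FPKM, 57.1% of the GDH94-expressed genes were on in VG9.

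**Figure D1:**
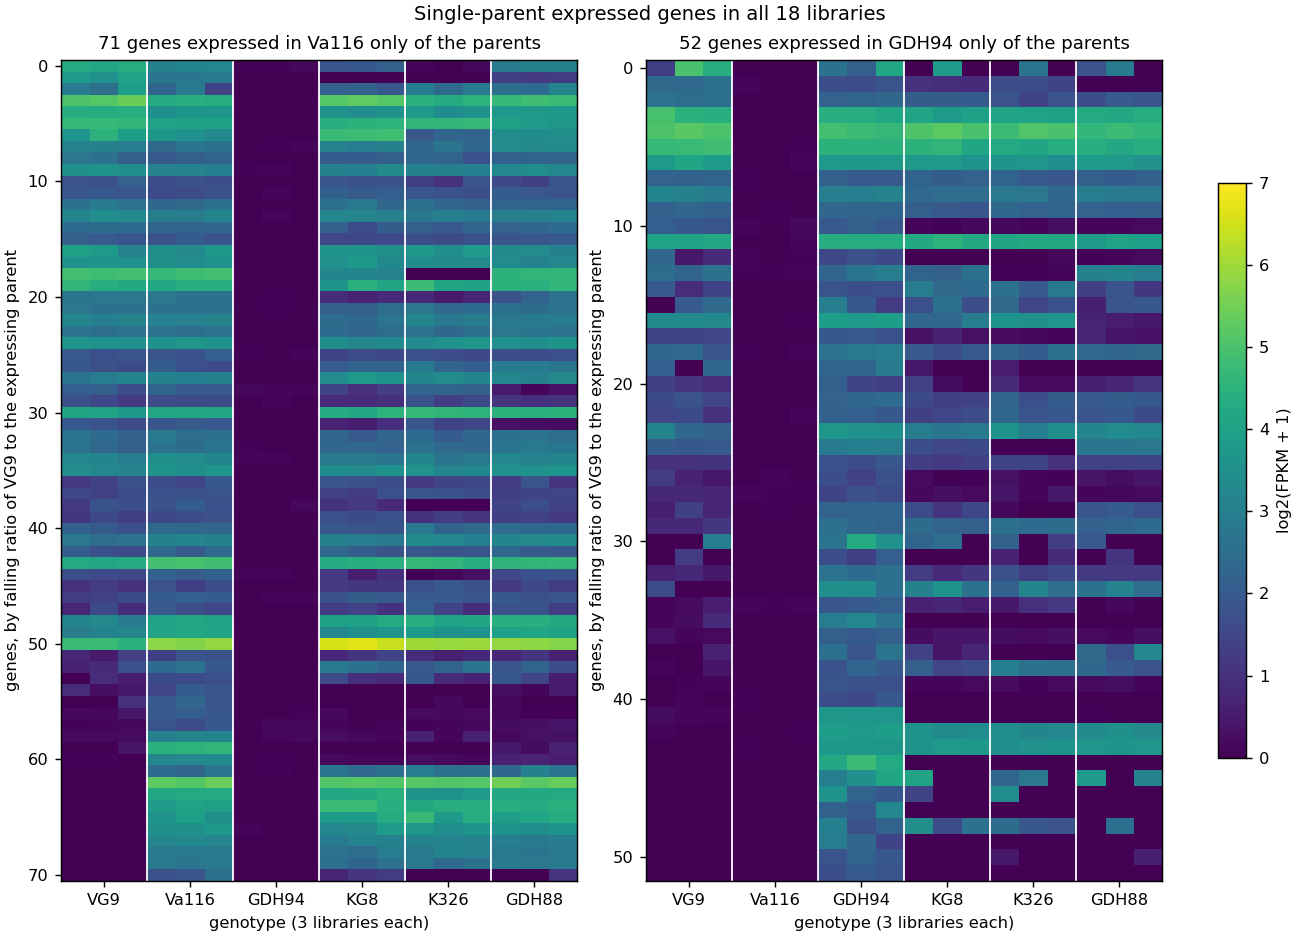
Heat map of log2(FPKM + 1) for the 71 Va116-expressed genes (left) and the 52 GDH94-expressed genes (right), 1 row a gene and 1 column a library, with white lines between the 6 genotypes. Genes are sorted by falling ratio of VG9 to the expressing parent, so the 11 and 12 genes that were off in VG9 lie near the bottom of each panel, and several of them are bright in KG8, K326 and GDH88.

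The summed level of the 71 Va116-expressed genes was 432 to 439 FPKM in the VG9 libraries, against 602 to 625 FPKM in Va116 and 0.65 to 1.13 FPKM in GDH94. For the 52 GDH94-expressed genes it was 199 to 216 FPKM in VG9, against 357 to 363 FPKM in GDH94 and 0.38 to 0.90 FPKM in Va116. In neither sum did the VG9 libraries overlap with those of a parent.

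The ratio of the VG9 mean to the mean of the expressing parent had a median of 0.80 over the 71 Va116-expressed genes, with quartiles of 0.25 and 1.09, and of 0.40 over the 52 GDH94-expressed genes, with quartiles of 0.037 and 0.83. The medians over all genes past the upper limits were 1.05 relative to Va116 and 0.957 relative to GDH94. On the Va116 side 18 genes had a ratio of at most 0.25, 14 lay above that and up to 0.75, and the rest lay higher. On the GDH94 side 24 had a ratio of at most 0.25 and 13 lay above that and up to 0.75. Among the genes that were on in VG9 the medians were 0.98 (range 0.448 to 2.27, n = 50) and 0.928 (range 0.426 to 2.00, n = 21), and so closer to the level of the expressing parent than to the mid-parent value. The genes that were on had to reach 1 FPKM in VG9, and this limit keeps low ratios out of these medians.

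All 3 VG9 libraries lay above all 3 Va116 libraries for 13 of the 71 genes and below them for 31, and the groups overlapped for 27. Over all genes past the limits in Va116 these shares were 31.2% above and 17.2% below. For the 52 GDH94-expressed genes VG9 lay above GDH94 for 6, below it for 34 and overlapped for 12, with 25.7% above and 34.8% below over all genes. The values of the parents entered the rule, so these counts are a description.

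**Figure D2:**
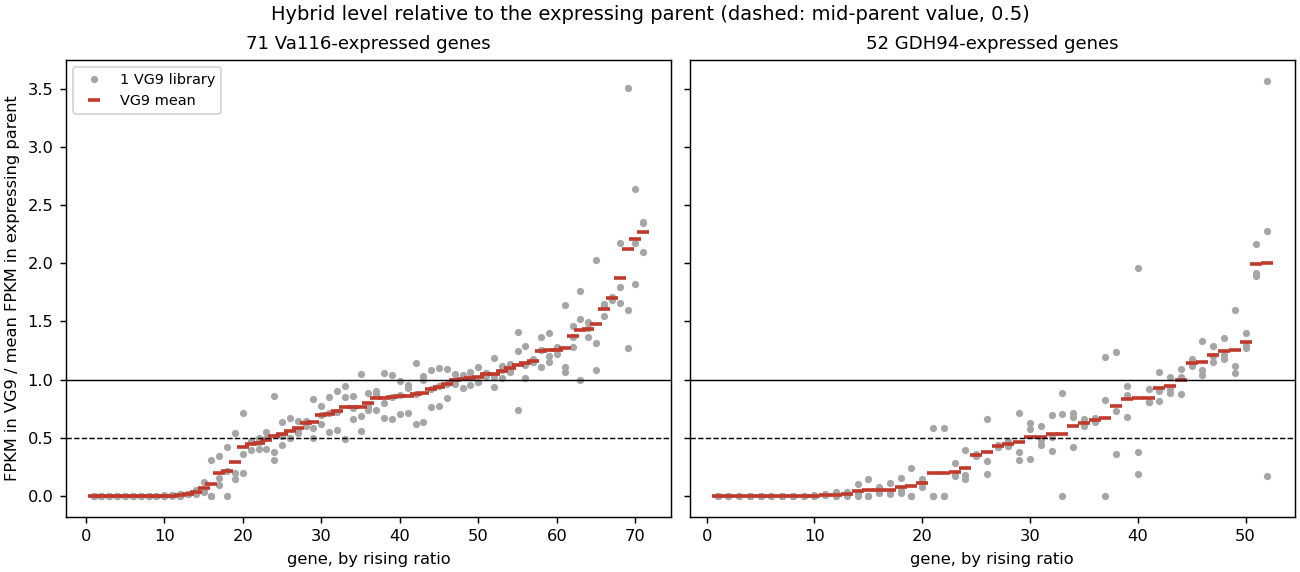
Ratio of the FPKM in VG9 to the mean FPKM in the expressing parent, for the 71 Va116-expressed genes (left) and the 52 GDH94-expressed genes (right), sorted by rising ratio. Grey points are the 3 VG9 libraries of a gene, red bars their mean, the solid line is the level of the expressing parent and the dashed line the mid-parent value of 0.5. The plateau at 0 is followed by a steady rise to 2.27 on the left and 2.00 on the right, crossing the dashed line on the way.

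The Va116-expressed gene with the highest parental level was Nitab4.5_0027235g0010, described as histone H2B, one of the core histones that package DNA into nucleosomes. It had 25.4, 25.4 and 21.4 FPKM in VG9, against 54.1, 50.1 and 57.0 FPKM in Va116, and was listed at 0 in all GDH94 libraries. The VG9 libraries lay below every Va116 library, and the ratio of 0.448 was near the mid-parent value. In the other genotypes it stood at 94.4 ± 8.9 FPKM in KG8, 61.3 ± 2.2 FPKM in K326 and 54.8 ± 2.6 FPKM in GDH88 (SD, n = 3 each). Histone genes form families of near-identical copies, and a division of reads between them was not tested.

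Some other strongly expressed Va116 genes reached or passed their parental level in the hybrid. Of the 21 with a parental mean of at least 10 FPKM, 5 were listed at 0 in every VG9 library and are described below. Nitab4.5_0010112g0010, which carries no description, had 32.1, 34.8 and 42.1 FPKM in VG9, against 18.7, 20.2 and 19.2 FPKM in Va116, a ratio of 1.88 with no overlap. Nitab4.5_0007853g0050 had 19.5, 19.2 and 19.4 FPKM in VG9, against 10.4, 12.1 and 11.6 FPKM in Va116, and Nitab4.5_0006411g0010 had 24.5, 24.7 and 23.3 FPKM, against 15.2, 14.98 and 14.8 FPKM. In all of these every VG9 library was above every Va116 library, although GDH94 was listed at 0. By contrast, Nitab4.5_0004610g0020 stood at 18.2 ± 0.70 FPKM in VG9 and 29.1 ± 1.1 FPKM in Va116 (SD, n = 3 each), a ratio of 0.625.

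Near the mid-parent value lay Nitab4.5_0002587g0020, described as the peptide chain release factor eRF1, which ends translation at stop codons. Its level was 6.68, 7.75 and 8.24 FPKM in VG9, against 16.04, 17.04 and 16.8 FPKM in Va116 and 0 in GDH94, a ratio of 0.454. Nitab4.5_0001751g0060, described as nonaspanin (TM9SF), a family of membrane proteins of the secretory pathway, had 7.98, 8.79 and 6.45 FPKM in VG9 and 15.5, 17.4 and 15.2 FPKM in Va116, a ratio of 0.482. Both were separated from Va116 without overlap.

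On the GDH94 side the highest parental level belonged to Nitab4.5_0000363g0020, described as the nitrogen regulatory protein PII, a plastid sensor of carbon and nitrogen status in plants. It had 32.2, 36.1 and 31.3 FPKM in VG9, against 29.0, 26.3 and 24.5 FPKM in GDH94, and was listed at 0 in all Va116 libraries. All VG9 libraries were above all GDH94 libraries, with a ratio of 1.249. KG8 (33.3 ± 3.1 FPKM), K326 (30.2 ± 3.1 FPKM) and GDH88 (24.5 ± 1.4 FPKM) expressed the gene as well (SD, n = 3 each), so that of the 6 genotypes it was undetected in Va116 alone.

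The following strongly expressed GDH94 genes lay above or below their parental level by small margins. This does not hold for all: of the 13 with a parental mean of at least 10 FPKM, 3 were listed at 0 in every VG9 library. Nearly silent in VG9 were Nitab4.5_0000036g0100 and Nitab4.5_0006891g0010, with ratios of 0.0020 and 0.0093. Nitab4.5_0019458g0010, Nitab4.5_0007553g0010 and Nitab4.5_0000287g0070 had ratios of 0.196, 0.468 and 0.652. Nitab4.5_0001740g0070, a HIT-type zinc finger gene, had 24.8, 26.0 and 27.8 FPKM in VG9, against 21.7, 21.3 and 21.8 FPKM in GDH94. Nitab4.5_0002256g0020, with a Myb-like domain typical of DNA-binding regulators, had 30.2, 21.1 and 20.03 FPKM in VG9, against 20.3, 19.4 and 17.0 FPKM in GDH94, where the groups overlapped. Nitab4.5_0003151g0070, a cytochrome b5-like protein of the electron carrier type, had 15.7, 15.6 and 17.8 FPKM in VG9, against 19.6, 19.2 and 19.2 FPKM in GDH94, so that VG9 was below its parent. Nitab4.5_0000051g0340, described as a probable transposase of the Ptta/En/Spm type, an enzyme that moves DNA transposons, stood at 14.5 ± 2.0 FPKM in VG9 and 12.6 ± 0.22 FPKM in GDH94 (SD, n = 3 each).

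The following 3 genes are among the further GDH94-expressed genes with descriptions that name a role, and are not all of them. Nitab4.5_0000677g0270 carries a GH3 domain, found in plant enzymes that conjugate auxin, and had 5.32, 4.81 and 4.92 FPKM in VG9, against 3.57, 3.66 and 4.15 FPKM in GDH94, with no overlap. Nitab4.5_0007553g0010, an AUX/IAA repressor of auxin response, had 7.88, 4.20 and 3.43 FPKM in VG9, against 11.96, 10.7 and 10.5 FPKM in GDH94, again with no overlap but in the other direction. The expansin Nitab4.5_0003567g0050, of a family that loosens plant cell walls, had 4, 0.38 and 0.77 FPKM in VG9, against 1.89, 2.34 and 1.90 FPKM in GDH94, so that 1 VG9 library stood far above the other two.

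Gene descriptions were at hand for 25 of the 71 Va116-expressed and 31 of the 52 GDH94-expressed genes. They come from lists of genes called different between hybrid and parent, so whether a gene has one depends on its hybrid level, and the counts of the classes that follow are biased by it: 10 of the 25 described Va116-expressed genes were off in VG9, and 21 of the 31 described GDH94-expressed genes were on.

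All 4 genes described as NB-ARC or disease resistance proteins, the intracellular immune receptors of plants, were under 1 FPKM in every VG9 library. Nitab4.5_0021935g0010 was at 0.04, 0.04 and 0 FPKM in VG9, against 8.53, 8.87 and 8.95 FPKM in Va116, and Nitab4.5_0010653g0010 at 0.04, 0.06 and 0.12 FPKM in VG9, against 2.55, 2.01 and 2.74 FPKM. Nitab4.5_0001553g0040 was at 0.55, 0.73 and 0.37 FPKM in VG9, against 5.36, 4.46 and 4.85 FPKM in GDH94, and Nitab4.5_0022627g0010 at 0.26, 0.08 and 0.13 FPKM in VG9, against 3.35, 2.97 and 3.38 FPKM. The ratios ran from 0.0030 to 0.112, and no VG9 library overlapped with the expressing parent. Of these genes only Nitab4.5_0001553g0040 exceeded 1 FPKM outside its expressing parent, with 1.10 ± 0.26 FPKM in KG8, 1.90 ± 0.41 FPKM in K326 and 1.29 ± 0.012 FPKM in GDH88 (SD, n = 3 each).

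The described transcription factors were 1 gene on the Va116 side and 4 on the GDH94 side. The AP2/ERF gene Nitab4.5_0000202g0480, of a family of ethylene- and stress-responsive regulators, had 0.74, 0.73 and 1.17 FPKM in VG9, against 4.84, 4.01 and 3.72 FPKM in GDH94. The TCP gene Nitab4.5_0001432g0020, of a family that regulates growth and cell division, had 1.71, 1.64 and 1.80 FPKM in VG9, against 2.78, 2.97 and 2.42 FPKM in GDH94, and stayed under 1 FPKM in KG8, K326 and GDH88. The GRAS gene Nitab4.5_0025058g0010 had 0.72, 0.71 and 0.70 FPKM in VG9, against 1.71, 2.31 and 2.03 FPKM in GDH94. These 3 lay below GDH94 without overlap, with ratios of 0.210, 0.630 and 0.352, while the Myb-like gene reached its parental level.

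The following enzyme, kinase and transporter genes lay at or below their parental level in VG9. The AGC-type protein kinase gene Nitab4.5_0000268g0080 had 3.54, 3.95 and 3.42 FPKM in VG9, against 3.95, 3.87 and 3.75 FPKM in GDH94, with overlap. The second kinase gene, Nitab4.5_0008114g0020, had 0.54, 1.49 and 0.67 FPKM in VG9, against 3.73, 3.74 and 3.89 FPKM in GDH94. An oxoglutarate- and iron-dependent dioxygenase gene, Nitab4.5_0000070g0220, was at 1.60 ± 0.53 FPKM in VG9 and 3.16 ± 0.36 FPKM in GDH94 (SD, n = 3 each), a ratio of 0.508. The drug/metabolite transporter gene Nitab4.5_0009352g0010 had 1.35, 0.61 and 0.38 FPKM in VG9, against 2.21, 1.59 and 2.34 FPKM in GDH94. A gene with ubiquitin-associated and AAA-type ATPase domains, Nitab4.5_0000660g0010, had 1.00, 1.00 and 1.04 FPKM in VG9, against 2.37, 2.07 and 2.70 FPKM in GDH94. Except for the AGC-type kinase, the groups in this set did not overlap.

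Some GDH94-expressed genes were uneven among the libraries of a genotype. In VG9 5 of the 52 had libraries both at 1 FPKM or more and at 0.1 FPKM or less, and there were 5 in KG8, 4 in K326 and 5 in GDH88. Of the 71 Va116-expressed genes there were 0 in VG9, KG8 and K326 and 1 in GDH88. The share of such genes over all genes past the upper limits was not computed, so these counts are a description. Nitab4.5_0000182g0080, described as histone H4, had 1.45, 30.7 and 19.6 FPKM in VG9, against 5.10, 3.35 and 17.4 FPKM in GDH94, and 0, 13.6 and 0 FPKM in KG8. Its ratio of 2.00, the highest on the GDH94 side, therefore rested on libraries that differed widely. Nitab4.5_0004121g0030 was listed at 0 in all VG9 libraries, had 6.98, 10.4 and 16.3 FPKM in GDH94, and was at 16.1, 0 and 0 FPKM in KG8. For such genes the levels of a genotype are poorly fixed by 3 libraries.

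The other cross gave libraries that the rule had not used. In KG8 54 of the 71 Va116-expressed genes were on, 12 between and 5 off (background on 98.6%, between 1.33%, off 0.0612%), in K326 53, 11 and 7 (99.1%, 0.843%, 0.0578%), and in GDH88 58, 13 and 0 (99.3%, 0.707%, 0.0136%). Of the 52 GDH94-expressed genes 26 were on, 16 between and 10 off in KG8 (96.9%, 2.98%, 0.0777%), and 25, 17 and 10 in both K326 (98.1%, 1.87%, 0.068%) and GDH88 (98.5%, 1.48%, 0.0583%). A gene silent in GDH94 was thus mostly expressed in the other 3 genotypes as well, and 50 of the 71 were on in KG8, K326 and GDH88 together. On the GDH94 side 20 of the 52 were on in all of these and 23 were on in none. The joint shares over all genes past the upper limits were not computed. These joint counts, and their splits by the state in VG9 given below, are therefore a description.

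**Figure D3:**
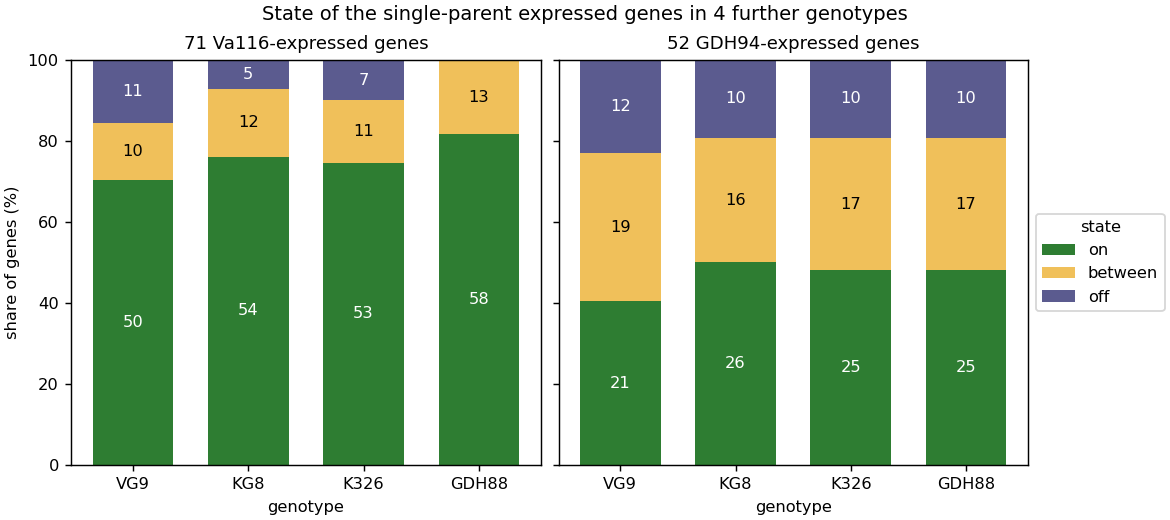
Share of the 71 Va116-expressed genes (left) and of the 52 GDH94-expressed genes (right) that were on (every library at 1 FPKM or more), off (every library at 0.1 FPKM or less) or between, in the 4 genotypes that the rule did not use, with the number of genes in each bar section. The on section is higher on the left in each genotype, from 50 genes in VG9 to 58 in GDH88, against 21 to 26 genes on the right.

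The hybrid level followed these groups of genes unevenly. Of the 50 Va116-expressed genes that were on in KG8, K326 and GDH88, 40 were on in VG9, 1 was between and 9 were off. Of the 10 that were on in none of these genotypes, 0 were on in VG9. On the GDH94 side 14 of the 20 widely expressed genes were on in VG9, 4 between and 2 off, and of the 23 that were on in none of KG8, K326 and GDH88, 3 were on in VG9. Of the 7 GDH94-expressed genes that were off in all of those genotypes, 5 were off in VG9 too and 2 were between.

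Genes found in 1 parent and hardly elsewhere made up 7 of the 71 and 11 of the 52, which stayed under 1 FPKM in all 12 libraries outside Va116 and GDH94. The strongest on the Va116 side was Nitab4.5_0000386g0170, of unknown function, with 0, 0 and 0.29 FPKM in VG9, against 21.3, 22.0 and 22.8 FPKM in Va116. It was listed at 0 in GDH94, KG8 and K326 and had 0.36, 0.18 and 0.55 FPKM in GDH88. The strongest on the GDH94 side was Nitab4.5_0002403g0020, listed at 0 in VG9, Va116, KG8, K326 and GDH88 and at 17.9, 26.7 and 18.4 FPKM in GDH94. Nitab4.5_0006891g0010, with a nucleic acid-binding OB-fold, had 0.17, 0.07 and 0.09 FPKM in VG9, against 12.04, 11.8 and 11.6 FPKM in GDH94. The low level in VG9 is part of how these genes were picked out. Not all were off there: Nitab4.5_0000386g0170 and Nitab4.5_0006891g0010 were between.

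Other genes were expressed in VG9 and GDH94 and hardly outside the cross. Nitab4.5_0010275g0030, with WD40 repeats that serve as protein interaction platforms, had 3.28, 2.78 and 2.50 FPKM in VG9, against 2.86, 3.41 and 2.95 FPKM in GDH94. No library of Va116, KG8, K326 or GDH88 passed 0.2 FPKM. The TCP gene Nitab4.5_0001432g0020 was likewise on in VG9 and under 1 FPKM in KG8, K326 and GDH88. The expansin gene Nitab4.5_0003567g0050 and Nitab4.5_0000686g0180 were under 1 FPKM there too, but uneven among the VG9 libraries.

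Differences between VG9 and the genotypes of the other cross were tested with limma on log2(FPKM + 1) over the 12 libraries of VG9, KG8, K326 and GDH88, with a Benjamini-Hochberg adjusted p under 0.05 and an absolute log2 fold change of at least 1 as the call. The filter on low values (a mean of at least 1 FPKM in any of these genotypes) left 35969 genes, with 64 of the 71 and 38 of the 52. The VG9 libraries are shared by all 3 comparisons. Against KG8, 6 Va116-expressed genes were called higher and 11 lower in VG9, and 4 GDH94-expressed genes higher and 7 lower, 23.9% of the 71 and 21.2% of the 52. Over all genes tested 2.88% were called, 1.45% higher and 1.43% lower.

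Against K326, 7 Va116-expressed genes were higher and 12 lower in VG9, and 6 GDH94-expressed genes higher and 7 lower, with 2.98% of all genes called, 1.53% higher and 1.45% lower. Against GDH88, 4 were higher and 12 lower on the Va116 side, and 5 higher and 6 lower on the GDH94 side, with 3.9% of all genes called, 2.37% higher and 1.53% lower. Each share of single-parent expressed genes was above the share over all genes. The higher calls on the GDH94 side include genes that passed the filter only through VG9, described below. The lower calls on both sides include genes that passed it only through KG8, K326 or GDH88, among them the genes off in VG9. The shares on both sides are therefore a description. K326 differed from GDH88 in 9 of the 71 (2 higher, 7 lower in K326) and 7 of the 52 (3 higher, 4 lower), against 1.77% of all genes, 1.15% higher and 0.62% lower. The median log2 difference of the tested genes was small throughout: 0.04 and 0.02 on the Va116 and GDH94 sides for VG9 against KG8, beside 0.19 over all genes tested. Scaling the libraries by median ratios brought the medians over all genes, 0.19 against KG8 and 0.11 against K326 as deposited, to 0.00.

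Many of the calls came from genes that were off in VG9 and on in KG8, K326 and GDH88. There were 9 on the Va116 side and 2 on the GDH94 side, all called lower in VG9 than in each of the 3 genotypes, which their choice by these states nearly fixed, so no p is given for them. Whether the sequenced Va116 and GDH94 plants came from the same seed stock as the parents of VG9 is not given in the sources used here and was not tested. The first was Nitab4.5_0003356g0020, described as a K-box transcription factor, the K-box being the domain through which plant MADS-box factors pair. It was listed at 0 in all VG9 and GDH94 libraries, while Va116 had 37.8, 33.9 and 41.9 FPKM, KG8 33.8, 35.2 and 33.5 FPKM, K326 34.3, 33.2 and 34.6 FPKM and GDH88 43.8, 35.8 and 40.7 FPKM. No library of Va116, KG8, K326 or GDH88 was near the values of VG9 and GDH94.

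Nitab4.5_0005936g0010, a calmodulin binding protein-like gene of the calcium signalling machinery, was listed at 0 in VG9 and GDH94 and had 17.6, 18.2 and 18.8 FPKM in Va116, with means of 18.7 FPKM in KG8, 11.9 FPKM in K326 and 18.0 FPKM in GDH88. Nitab4.5_0000138g0020, a bacterial-type ribosomal protein L30, of the large ribosomal subunit, was listed at 0 in VG9 and GDH94 and had 13.4, 15.3 and 14.6 FPKM in Va116, and 24.3 FPKM in KG8, 18.8 FPKM in K326 and 19.7 FPKM in GDH88. Both were present in each library of the other 4 genotypes.

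The remaining Va116-expressed genes of this kind were lower in level. Nitab4.5_0006260g0030, described as SCAMP, a secretory carrier membrane protein, was listed at 0 in VG9 and at 10.4, 10.5 and 12.4 FPKM in Va116. Nitab4.5_0003356g0080, an ArsA/GET3-type ATPase, a class that in yeast delivers tail-anchored proteins to membranes, was listed at 0 in VG9 and at 8.11, 8.95 and 8.06 FPKM in Va116. Nitab4.5_0012840g0010, a glycosyl transferase of family 8, was listed at 0 in VG9 and at 6.09, 5.71 and 6.33 FPKM in Va116. The other three, Nitab4.5_0006260g0010, Nitab4.5_0006009g0020 and Nitab4.5_0004255g0010, have no known function and averaged 11.8, 6.23 and 4.71 FPKM in Va116. In VG9 the highest library value among these genes was 0.03 FPKM, in Nitab4.5_0004255g0010.

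On the GDH94 side Nitab4.5_0000806g0060 was listed at 0 in VG9, with 12.4, 12.3 and 12.03 FPKM in GDH94 and means of 12.1 FPKM in KG8, 10.5 FPKM in K326 and 11.5 FPKM in GDH88. Nitab4.5_0000036g0100 had 0.06, 0.02 and 0 FPKM in VG9, against 13.95, 12.5 and 13.96 FPKM in GDH94, and 9.94 FPKM in KG8, 8.86 FPKM in K326 and 9.47 FPKM in GDH88. Here VG9 resembled Va116, where the highest libraries were at 0.04 FPKM. A gene past the upper limits in both parents was off in VG9 in 1 of 28712 cases, or 0.00348%, and in KG8 in 0 of 28639.

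**Figure D4:**
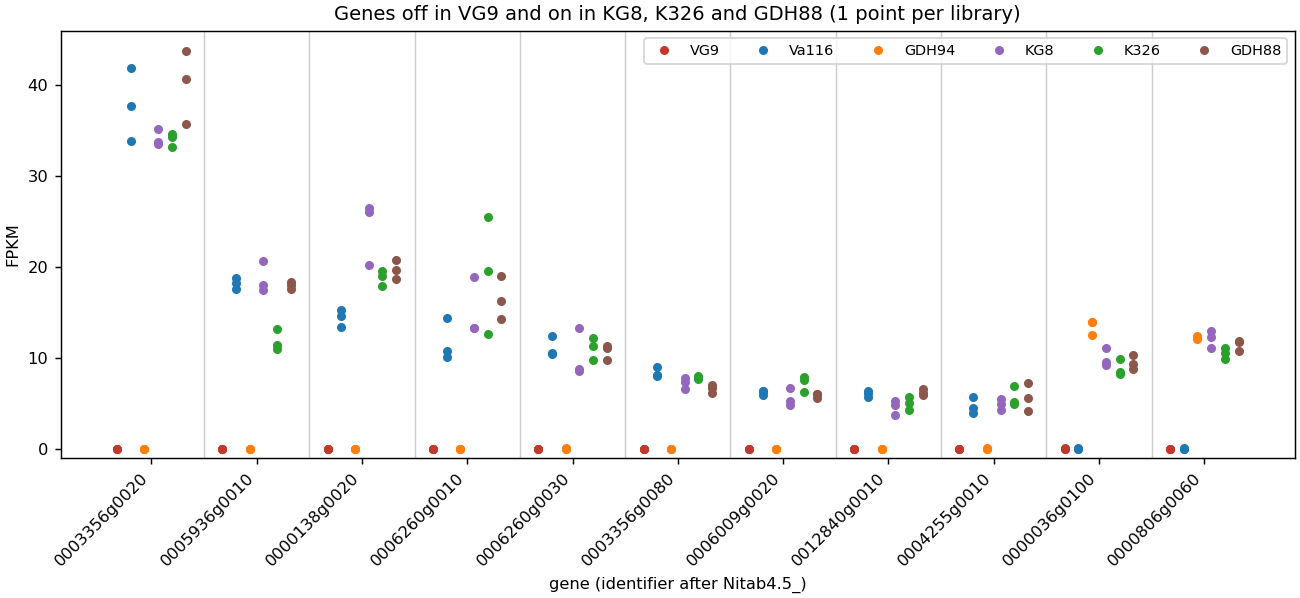
FPKM of the 11 genes that were off in VG9 and on in KG8, K326 and GDH88, 1 point a library and 1 colour a genotype, with 9 Va116-expressed genes on the left and 2 GDH94-expressed genes on the right. VG9 lies on the zero line with the silent parent, GDH94 on the left and Va116 on the right, while the expressing parent and the other 3 genotypes lie at about the same height in most genes.

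Besides these, 1 Va116-expressed and 3 GDH94-expressed genes were called lower in VG9 than in KG8, K326 and GDH88. For the histone H2B gene Nitab4.5_0027235g0010 the log2 difference to KG8 was -1.93 ± 0.086 (SE, limma adjusted p = 2.40e-08), to K326 -1.32 ± 0.086 and to GDH88 -1.16 ± 0.086. The 3 GDH94-expressed genes averaged under 1 FPKM in VG9 and passed the filter on low values only through the other genotypes. They could therefore be called only lower in VG9, and their calls support nothing by themselves, so no p is given for them. For the AP2/ERF gene Nitab4.5_0000202g0480 the log2 difference to KG8 was -1.37 ± 0.13 (SE), where KG8 had 4.58, 3.69 and 3.32 FPKM. The others, Nitab4.5_0002311g0090 and Nitab4.5_0006001g0020, have no description. In Nitab4.5_0002311g0090 VG9 had 2.02, 0 and 0 FPKM, against 7.39, 11.1 and 5.23 FPKM in KG8.

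Higher in VG9 than in all 3 other genotypes were 2 Va116-expressed and 3 GDH94-expressed genes. Nitab4.5_0006170g0010, of unknown function, had 18.9, 16.9 and 19.0 FPKM in VG9, against 7.37, 8.22 and 8.57 FPKM in Va116, 2.61, 2.77 and 3.32 FPKM in KG8, 0.07, 0.03 and 0.12 FPKM in K326 and 6.56, 7.49 and 7.33 FPKM in GDH88. VG9 was 2.27 times its expressing parent, the highest ratio on that side, and differed from KG8 by 2.31 ± 0.096 on the log2 scale (SE, limma adjusted p = 1.38e-08). Nitab4.5_0006600g0020, a GRF-type zinc finger gene, had 12.8, 10.7 and 15.5 FPKM in VG9, against 5.74, 5.76 and 6.10 FPKM in Va116, was listed at 0 in GDH94, KG8 and K326, and had 1.46, 1.28 and 1.31 FPKM in GDH88 (limma adjusted p = 5.87e-08 for VG9 against GDH88). In both the 3 VG9 libraries were above every library of the 5 other genotypes.

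The 3 GDH94-expressed genes passed the filter on low values only through VG9, so they could enter the test only as higher there, and their calls support nothing by themselves. They were the WD40 gene Nitab4.5_0010275g0030, the expansin gene Nitab4.5_0003567g0050, which without VG9 replicate 1 fell below the filter and was not tested, and Nitab4.5_0000686g0180. The last had 3.29, 0 and 4.12 FPKM in VG9 and at most 0.46 FPKM in KG8, K326 and GDH88, with 1 VG9 library listed at 0. The TCP gene Nitab4.5_0001432g0020 also passed the filter only through VG9, where it averaged 1.72 FPKM. It was called higher than K326 alone, and that call supports nothing by itself either.

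In other genes VG9 was called higher than KG8 and not than both of its parents. Nitab4.5_0001012g0030 had 5.65, 5.80 and 5.80 FPKM in VG9, against 0.90, 0.62 and 0.84 FPKM in KG8 (limma adjusted p = 1.56e-05), and GDH88 had 2.33, 3.59 and 5.19 FPKM, below VG9 by less than the fold limit. Nitab4.5_0001416g0030 had 4.32, 4.26 and 4.88 FPKM in VG9, against 0.98, 0.89 and 0.83 FPKM in KG8 (limma adjusted p = 1.93e-06), and K326 had 2.01, 2.22 and 1.71 FPKM, again below VG9 without overlap and within the fold limit, while its expressing parent GDH94 had 2.23, 2.02 and 2.50 FPKM. VG9 was thus 1.99 times GDH94 in the second gene, with Va116 at 0.06 FPKM or less.

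Several of the genes also differed between K326 and GDH88, and 7 were on in one and off in the other. Nitab4.5_0007178g0020, with no description, had 8.34, 8.31 and 7.63 FPKM in KG8, was listed at 0 in its parent K326, and had 21.5, 23.6 and 23.0 FPKM in its parent GDH88. In the VG9 cross the same gene had 29.1, 27.2 and 29.8 FPKM in VG9, against 24.5, 27.1 and 28.6 FPKM in Va116 and 0 in GDH94. VG9 stood at 1.07 times Va116, and overlapped with it, while KG8 lay between its parents and below every GDH88 library.

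The major facilitator transporter gene Nitab4.5_0000159g0130 had 3.17, 2.84 and 2.88 FPKM in VG9, against 6.28, 7.08 and 6.66 FPKM in GDH94, and was listed at 0 in Va116. In the other cross it had 2.20, 1.79 and 1.95 FPKM in KG8, against 5.78, 5.77 and 5.90 FPKM in GDH88, and was listed at 0 in K326, so that both hybrids lay between their parents without overlap. Nitab4.5_0004810g0030, of unknown function, had 4.71, 3.68 and 5.12 FPKM in VG9 and 3.89, 5.55 and 6.79 FPKM in GDH94, and 3.80, 3.39 and 4.96 FPKM in KG8, against 0.05, 0.04 and 0.07 FPKM in K326 and 7.48, 7.90 and 6.72 FPKM in GDH88. The RING-type zinc finger gene Nitab4.5_0000287g0070, of a class that includes many ubiquitin ligases, had 9.22, 9 and 8.75 FPKM in VG9 and 13.9, 13.3 and 14.1 FPKM in GDH94. In the other cross KG8 had 3.96, 4.11 and 6.85 FPKM, and K326 was the higher parent, with 11.2, 10.5 and 11.6 FPKM, against 0.65, 0.47 and 0.38 FPKM in GDH88 (limma adjusted p = 8.75e-08).

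The same rule applied to K326 and GDH88 found 20 genes, 9 expressed in K326 and 11 in GDH88, against 123 in the VG9 cross. In KG8 8 of the 20 were on, 10 between and 2 off, with a median ratio to the expressing parent of 0.364. In VG9 71 of the 123 were on, 29 between and 23 off, with a median ratio of 0.625. The crosses shared 4 of these genes, 20% of the 20 and 3.25% of the 123, and the difference between the crosses was not tested.

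Many of the Va116-expressed genes shared a genome scaffold, which the rule did not use. The scaffold number is part of the gene identifier, and the scaffolds are not placed on chromosomes here. Of the 71 genes 34 (47.9%) had another on the same scaffold, in 11 scaffolds, against 8 of the 52 GDH94-expressed genes (15.4%) in 4 scaffolds. A GDH94-expressed gene shared its scaffold with at most 1 other, whereas one scaffold held 6 Va116-expressed genes. Of all genes past the upper limits in Va116, 87.9% had another such gene on their scaffold, and in GDH94 88.3%, but these are far larger sets, and the sharing to be found in sets of 71 or 52 genes was not computed, so the counts are a description. All single-parent expressed genes of a scaffold had the same state in VG9 in 8 of the 11 scaffolds on the Va116 side, where 70.4% of the genes were on in any case, and in 2 of the 4 on the GDH94 side.

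The scaffold with the most was that of the release factor gene Nitab4.5_0002587g0020. It has 13 listed genes, of which 7 passed the upper limits in Va116 and 6 of these were silent in GDH94. The seventh, Nitab4.5_0002587g0040, was the strongest, at 35.4 FPKM in VG9, 58.3 FPKM in Va116 and 0.69 FPKM in GDH94. On the scaffold of Nitab4.5_0006562g0010 all 5 genes that passed the limits in Va116 were silent in GDH94, and all 5 were on in VG9. Their VG9 means were 0.863, 1.02, 1.13, 1.14 and 1.02 times those of Va116, and Nitab4.5_0006562g0010 itself had 16.3, 15.9 and 12.3 FPKM in VG9, against 17.0, 17.5 and 16.9 FPKM in Va116.

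The scaffold of Nitab4.5_0006893g0030 had 4 of 4 such genes, likewise all on in VG9, and Nitab4.5_0006893g0030 had 10.97, 11.4 and 10.7 FPKM in VG9, against 10.1, 9.68 and 10.4 FPKM in Va116. In other scaffolds silent and expressed genes stood side by side: on that of Nitab4.5_0001751g0060, 4 of the 8 genes past the limits in Va116 were silent in GDH94 and 3 were on there, among them Nitab4.5_0001751g0010 at 164 FPKM in VG9, 206 FPKM in Va116 and 196 FPKM in GDH94. The K-box gene and the ArsA/GET3-type gene described above share 1 scaffold, and Nitab4.5_0006260g0010 and Nitab4.5_0006260g0030 another, and in both pairs both genes were off in VG9. Genes of 1 scaffold are thus not separate observations, and the counts of on and off genes above hold such groups.

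**Figure D5:**
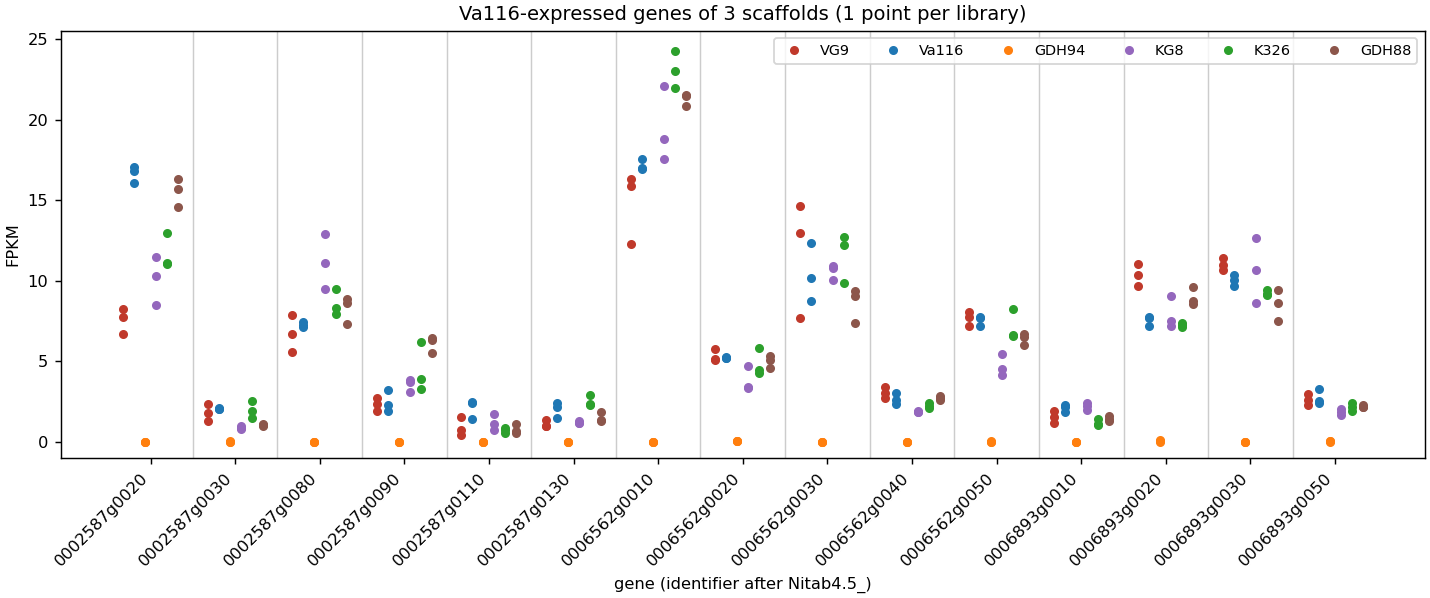
FPKM of the Va116-expressed genes on 3 scaffolds (6, 5 and 4 genes), those of Nitab4.5_0002587g0020, Nitab4.5_0006562g0010 and Nitab4.5_0006893g0030, 1 point a library and 1 colour a genotype. GDH94 lies on the zero line in every gene, while VG9 lies among or near the other genotypes in most. In the release factor gene on the far left VG9 (6.68 to 8.24 FPKM) is well below all Va116 libraries (16.04 to 17.04 FPKM). By smaller margins, VG9 is also below all Va116 libraries in Nitab4.5_0006562g0010 and Nitab4.5_0002587g0130, and above them in Nitab4.5_0006893g0020 and Nitab4.5_0006893g0030.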

How the data were processed

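Leaf RNA-seq values of 18 libraries were used, 3 of each genotype. Per the labels, total RNA was made into paired-end libraries, and the notes on processing name HISAT2, StringTie and RSEM, with versions not given in the sources used here. Reads were aligned to the genome of K326, so genes that K326 lacks are outside the table, and reads of other genotypes that differ from it may align less well. The authors deposited 1 table of 69500 genes whose FPKM values are given to 2 decimals. The unit is not named in the file. It was taken as FPKM because the values are not whole and the library sums differ, up to 1062588.

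The rule, the on and off limits and the ratios were applied to the deposited FPKM. Members and gene lists were chosen with earlier results of these data known. Tests used limma 3.58.1 (R 4.3.3, trended empirical Bayes) on log2(FPKM + 1), two-sided, with Benjamini-Hochberg adjustment over 35969 genes. The pseudocount of 1 shrinks fold changes of low genes. Only the 12 libraries of VG9, KG8, K326 and GDH88 entered, since the rule had used the other 6. The study tested its own comparisons with a method for counts, which these values are not. With 3 libraries against 3 an exact permutation test of a single value cannot go below p = 0.1, and none was used. On data simulated for VG9 against KG8 (35160 genes), 199 of 200 genes changed 4-fold were called, and 3 unchanged genes. The changed genes were drawn only from well-expressed genes, with normally distributed noise. The simulation therefore does not cover low genes or genes with uneven libraries, of which the single-parent expressed genes hold many.

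Genes were named by a fixed rule (the 6 highest in the parent, the lowest and highest ratios among means of at least 10 FPKM, the largest calls of VG9 against KG8, up to 2 per description class, and genes at the limits), which gave 19 Va116-expressed and 25 GDH94-expressed genes. Others were named after their values were seen: genes off in VG9, genes called in all 3 comparisons, genes of K326 and GDH88 in opposite states, genes on shared scaffolds, and a few with descriptions of interest. Descriptions were taken from the study's supplementary sheets, by identifier only. The table's identifiers matched 0 of the RefSeq genes at hand, so no sequence is shown. Replicate numbers were not used to pair the libraries in the main tests. Whether a number marks a block of the field trial is not given in the sources used here.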

Additional observations from a re-analysis of the deposited data

How the results depend on the processing

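The FPKM values carry no read counts, which limits what can be said of genes under 1 FPKM. Having 3 libraries a genotype limits the uneven GDH94-expressed genes most. With an off limit of 0 there were 45 Va116-expressed and 27 GDH94-expressed genes, with 0.3 FPKM 82 on the GDH94 side, and with a parental mean of at least 5 FPKM 40 and 21. With that mean, 87.5% of the Va116-expressed genes were on in KG8 and 92.5% in GDH88, and 57.1%, 66.7% and 61.9% of the GDH94-expressed genes in VG9, KG8 and GDH88. The median ratio of VG9 to GDH94 was then 0.468, and 0.370 with equal library totals. Leaving out each VG9 or parental library in turn gave 0.319 to 0.427, and 0.764 to 0.831 on the Va116 side. Over the GDH94-expressed genes on in VG9 it was 0.978 with median-ratio scaling and 0.850 with equal totals, settings chosen after seeing the data. With no fold change limit the calls were 40 and 19 (Va116 and GDH94 sides) for VG9 against KG8, 33 and 23 against K326, 34 and 21 against GDH88, and 16 on the Va116 side for K326 against GDH88. All other alternatives kept the counts of calls within 1.5 times. Leaving out each library gave 16 to 19 and 10 to 12 calls against KG8, 18 to 19 and 9 to 13 against K326, 16 to 18 and 10 to 12 against GDH88, and 9 and 6 to 8 for K326 against GDH88. Of 62 called comparisons of 22 named genes, 853 of 862 alternative values kept the call and 0 reversed. The 9 that lost it were all of Nitab4.5_0003567g0050.

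The replicate numbers are shared between the genotypes, but same-numbered libraries correlated in their deviations between -0.147 and 0.217, over 0.1 in 2 of 18 pairs, and 15 of 36 matched best with their own number. With the replicate block the calls were 17 and 12 for VG9 against KG8, 19 and 14 against K326, 16 and 11 against GDH88, and 9 and 7 for K326 against GDH88.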

Other observations

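In VG9 13 genes passed the upper limits of the rule (a mean of at least 2 FPKM and every library at 1 FPKM or more) although every library of Va116 and GDH94 was at 0.1 FPKM or less, and in KG8 0 genes did so relative to K326 and GDH88. The strongest was Nitab4.5_0000261g0140, with ATP-grasp domains found in ligases, at 18.8, 18.7 and 14.6 FPKM in VG9 and listed at 0 in each of the other genotypes. Nitab4.5_0003168g0020, a serine/threonine protein kinase gene, had 4.79, 5.08 and 3.29 FPKM in VG9, and Nitab4.5_0002100g0170, a probable transposase of the Ptta/En/Spm type, 2.29, 2.85 and 2.69 FPKM, both with averages of 0.01 FPKM or less elsewhere. Others were not limited to VG9: Nitab4.5_0000229g0060, of unknown function, had 4.37, 4.34 and 4.79 FPKM in VG9, was listed at 0 in Va116 and GDH94, and averaged 4.56 FPKM in KG8, 4.22 FPKM in K326 and 6.05 FPKM in GDH88. The chaperonin Cpn60 gene Nitab4.5_0006949g0030, of a family that folds proteins in plastids and mitochondria, averaged 3.57 FPKM in VG9, 2.77 FPKM in KG8 and 7.88 FPKM in K326, and was listed at 0 in Va116, GDH94 and GDH88. These genes were found by their level in the same libraries, so the values are a description with no test. Whether the sequenced parental plants came from the same seed stock as the parents of VG9 was not tested.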
